A study of Mus musculus with 24 samples.

Results

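The collagen, laminin and integrin genes of the mouse were followed through 6 groups of sorted embryonic cortical cells. The members were chosen by name alone, as the protein-coding genes whose symbols denote a collagen alpha chain, a laminin alpha, beta or gamma chain, or an integrin alpha or beta subunit. For integrin alpha subunits only symbols with a number or v after Itga were taken, and those with another letter there were left out. There were 76 members among the 39017 genes in the count tables, namely 44 collagens, 11 laminins, 13 integrin alpha subunits and 8 integrin beta subunits. The rule uses symbols only, but these families were picked with earlier results of these data known, so their share of called genes is a description.

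Cells came from the cerebral cortex of E15.5 embryos and were sorted into 3 populations. PAX6+ cells are labelled radial glia, TBR2+ cells intermediate progenitors, and PAX6-TBR2- cells cortical neurons; TBR2 is the protein product of Eomes. KO embryos carried Emx1Ires-Cre together with Prdm16 flox/flox. WT embryos carried Prdm16 flox/flox without the Cre allele. The floxed alleles are therefore shared by all 24 libraries, and the Cre insertion at Emx1 and the loss of Prdm16 cannot be told apart. Emx1 drives Cre in the dorsal telencephalic lineage, so cells that entered the cortex from elsewhere would keep Prdm16. Each of the 6 groups held 4 libraries, described as biological replicates, with no record of which embryos or litters they came from. The p-values thus measure only the spread between these libraries.

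Collagens are trimers of alpha chains that form fibrils, networks or transmembrane proteins, and laminins are heterotrimers of an alpha, a beta and a gamma chain that assemble into basement membranes. Integrins are receptors made of 1 alpha and 1 beta subunit that bind matrix proteins and connect them to the cytoskeleton. In the developing cortex, radial glia attach by their basal endfeet to the basement membrane below the meninges, and laminin-binding integrins are known to take part in that attachment. Prdm16 encodes a zinc-finger transcriptional regulator expressed in radial glia.

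Library totals ran from 4948977 to 12554161 counts, except for WT PAX6-TBR2- replicate 4 with 30027954 counts. The 76 members took 0.15% to 0.196% of the counts in PAX6+ libraries, 0.044% to 0.063% in TBR2+ libraries and 0.0405% to 0.0481% in PAX6-TBR2- libraries. Pax6 was at 422 ± 32.4 CPM in KO and 434 ± 26.7 CPM in WT PAX6+ cells, and at 231 ± 62.3 and 241 ± 44.2 CPM in KO and WT TBR2+ cells (SD, n = 4 each, as for all values given as mean ± SD). Eomes reached 876 ± 78.5 CPM in KO and 930 ± 77.9 CPM in WT TBR2+ cells. TBR2+ libraries also held neuronal transcripts: the sum of 8 neuron markers was 5888 to 8117 CPM in KO and 6190 to 7821 CPM in WT TBR2+ cells, against 8255 to 9087 CPM in KO and 8358 to 9575 CPM in WT PAX6-TBR2- cells. Prdm16, the targeted gene, was at 187 ± 27.1 CPM in KO and 252 ± 34.1 CPM in WT PAX6+ cells (log2 fold change -0.43, SE 0.12, edgeR adjusted p = 0.05798). Counts over the whole gene do not separate the floxed part from the rest, and adjusted p was 0.8998 in TBR2+ and 0.8136 in PAX6-TBR2- cells.

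Levels are in CPM, a count relative to its library total, scaled by TMM factors over all 24 libraries. Levels of different genes are ranked only after division by the kilobases of exon, as CPM per kb. Sums over genes add CPM without that division. Genotype differences are log2 fold changes of KO over WT from edgeR's quasi-likelihood test, with Benjamini-Hochberg adjustment over all tested genes, and calls were made where the adjusted p was under 0.05. Of the 76 members, 47 had enough counts to be tested in PAX6+, 35 in TBR2+ and 39 in PAX6-TBR2- cells, and 25 were tested in none of the 3 populations. These 25 were Col1a1, Col3a1, Col5a3, Col6a1, Col6a2, Col6a3, Col6a4, Col6a5, Col6a6, Col8a1, Col8a2, Col9a1, Col13a1, Col19a1, Col24a1, Col25a1, Col26a1, Col28a1, Itga7, Itgb2, Itgb3, Itgb6, Lama3, Lamb3 and Lamc3. Their highest mean in any group was 1.47 CPM, and the 6 collagen VI genes together summed to at most 3.21 CPM in any library.

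In PAX6+ cells, 9 members were called between the genotypes. The laminin receptor subunit Itga6 rose 3.43-fold in KO radial glia and the laminin chain Lama1 rose 2.6-fold, while the fibril-associated collagens Col12a1 and Col22a1 fell 6.45-fold and 20.2-fold. Col5a1, Itgb5 and Col4a3 rose as well, and Col1a2 and Lama5 fell. The 9 called genes are 19.1% of the 47 members tested, against 3.64% of all 14212 genes tested; 5 were higher, where 2.45% of all genes were, and 4 lower, where 1.19% were. The median log2 fold change over the 47 members was -0.14, against 0.002 over all tested genes. With the replicate number as a block, which pairs libraries of the same number, 1045 genes were called in place of 517, and members called lower came to 6 in place of 4, with Col2a1 (log2 fold change -0.26, adjusted p = 0.03106) and Col4a2 (-1.07, adjusted p = 0.007632) added. Without WT replicate 1, only 2 members were called lower. In these bulk samples, fewer cells of a type and less RNA per cell cannot be told apart.

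Itga6 encodes the alpha6 integrin subunit, which pairs with beta1 or beta4 to bind laminins. The gene (ENSMUSG00000027111) lies on the plus strand at chr2:71745616-71858416 of GRCm38. In PAX6+ cells its level was 357, 302, 343 and 388 CPM in KO libraries and 92.9, 98.9, 100 and 115 CPM in WT libraries. Every KO library was above every WT library. The means were 348 ± 35.4 CPM in KO and 102 ± 9.44 CPM in WT (log2 fold change 1.78, SE 0.10, adjusted p = 4.015e-08). Per kb of exon, Itga6 stood at 38.5 CPM in KO and 11.3 CPM in WT, the highest level of any integrin alpha member in these cells in both genotypes.

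Lama1 encodes the laminin alpha1 chain, a component of early basement membranes (plus strand, chr17:67697259-67822647). PAX6+ libraries held 187, 143, 176 and 128 CPM in KO and 57.6, 67.9, 61.8 and 57.7 CPM in WT. The groups did not overlap, and the fold change was 1.38 on the log2 scale (SE 0.12, adjusted p = 3.412e-06). Per kb, Lama1 was at 16.4 CPM in KO and 6.33 CPM in WT PAX6+ cells. In WT it stood below Lamc1 (12.5 CPM per kb) and Lamb2 (8.74 CPM per kb), and in KO above Lamc1 (10.4 CPM per kb) and Lamb2 (8.11 CPM per kb).

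Lama5, which encodes the alpha5 chain, went the other way. It was at 14.4, 13.6, 9.3 and 11.6 CPM in KO and 21.3, 21.9, 18 and 16.8 CPM in WT PAX6+ libraries, with no overlap (log2 fold change -0.67, SE 0.17, adjusted p = 0.03179). This call was lost in 6 of 8 fits that each left out 1 library (WT replicates 1, 2 and 3 and KO replicates 2, 3 and 4), with an adjusted p of up to 0.1288 without WT replicate 2. It was also lost when all 24 libraries were fitted together (adjusted p = 0.07505). With the replicate block it was kept (adjusted p = 0.00286). The chains that complete a laminin trimer were not called: Lamc1 averaged 86 ± 6.09 CPM in KO and 103 ± 14.4 CPM in WT (log2 fold change -0.26, adjusted p = 0.3321), and Lamb2 averaged 49.3 ± 10.5 CPM in KO and 53.1 ± 8.12 CPM in WT (log2 fold change -0.10, adjusted p = 0.8859). Itgb1, the beta1 partner of alpha6, was not called either, at 96.3 ± 12.4 CPM in KO and 91.5 ± 10.1 CPM in WT (log2 fold change 0.08, adjusted p = 0.8859).

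Col12a1 and Col22a1 encode FACIT collagens, which sit on the surface of collagen fibrils and do not form fibrils themselves. Col12a1 (ENSMUSG00000032332, minus strand, chr9:79598991-79718831) was at 18.2, 15.6, 21.1 and 22 CPM in KO and 109, 84.6, 179 and 127 CPM in WT PAX6+ libraries. The highest KO library was far below the lowest WT library, although the WT libraries also differed among themselves (log2 fold change -2.69, SE 0.19, adjusted p = 3.367e-07). In WT radial glia Col12a1 was at 8.19 CPM per kb, next among the collagens to Col2a1 at 21.4 CPM per kb, and in KO it was at 1.26 CPM per kb, with Col2a1 at 17.9 CPM per kb. Col22a1 (minus strand, chr15:71795795-72034227) was at 0.206, 0.383, 0.439 and 0.085 CPM in KO and 5.86, 3.28, 10.5 and 3.96 CPM in WT libraries. The 4 KO libraries together held 13 reads of Col22a1, against 322 reads in the 4 WT libraries (log2 fold change -4.34, SE 0.49, adjusted p = 4.251e-05). Of the 5 FACIT collagens tested, these 2 fell and the other 3 were not called, among them Col9a3 at 11.9 ± 1.29 CPM in KO and 16.5 ± 3.78 CPM in WT (log2 fold change -0.46, adjusted p = 0.2585).

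Among fibril-forming collagens, Col5a1, whose chain nucleates thin fibrils, rose and Col1a2, a chain of type I collagen, fell. Col5a1 was at 40.5, 34, 34 and 23.4 CPM in KO and 17.8, 19.2, 17.4 and 15.8 CPM in WT libraries, without overlap (log2 fold change 0.91, SE 0.16, adjusted p = 0.002207). Col1a2 was near the detection limit, at 0.413, 0.459, 0.175 and 0.34 CPM in KO and 2.01, 1.16, 1.57 and 1.22 CPM in WT libraries. That is 16 reads over the 4 KO libraries and 77 over the 4 WT libraries (log2 fold change -2.06, SE 0.44, adjusted p = 0.01243), and the call was lost without WT replicate 1 (adjusted p = 0.05794). Col2a1, the most abundant collagen per kb in these cells, averaged 165 ± 29.1 CPM in KO and 198 ± 28.4 CPM in WT and was not called (log2 fold change -0.26, adjusted p = 0.4704).

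The remaining called genes were low. Itgb5 encodes the beta5 subunit, which pairs with alphav, and was at 7.33, 6.12, 6.23 and 4.33 CPM in KO and 2.01, 2.39, 3.33 and 1.63 CPM in WT libraries (log2 fold change 1.34, SE 0.27, adjusted p = 0.007861). Its partner Itgav averaged 84.4 ± 7.68 CPM in KO and 79.6 ± 4.59 CPM in WT (log2 fold change 0.09, adjusted p = 0.838). Col4a3, a chain of type IV collagen, was at 2.48, 2.68, 1.75 and 2.72 CPM in KO and 1.05, 0.751, 1.07 and 0.508 CPM in WT libraries (log2 fold change 1.49, SE 0.36, adjusted p = 0.02661). For both genes the groups did not overlap. The call of Col4a3 held without KO replicate 3 and was lost without each of the other 7 libraries in turn, with an adjusted p of up to 0.1047 without WT replicate 4. The other 5 collagen IV genes were not called, with Col4a5 at 29.3 ± 5.72 CPM in KO and 32.5 ± 4.51 CPM in WT. Over all 38 members tested and not called, log2 fold changes lay between -1.0 for Col4a2 and 0.58 for Itga9.

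**Figure D1:**
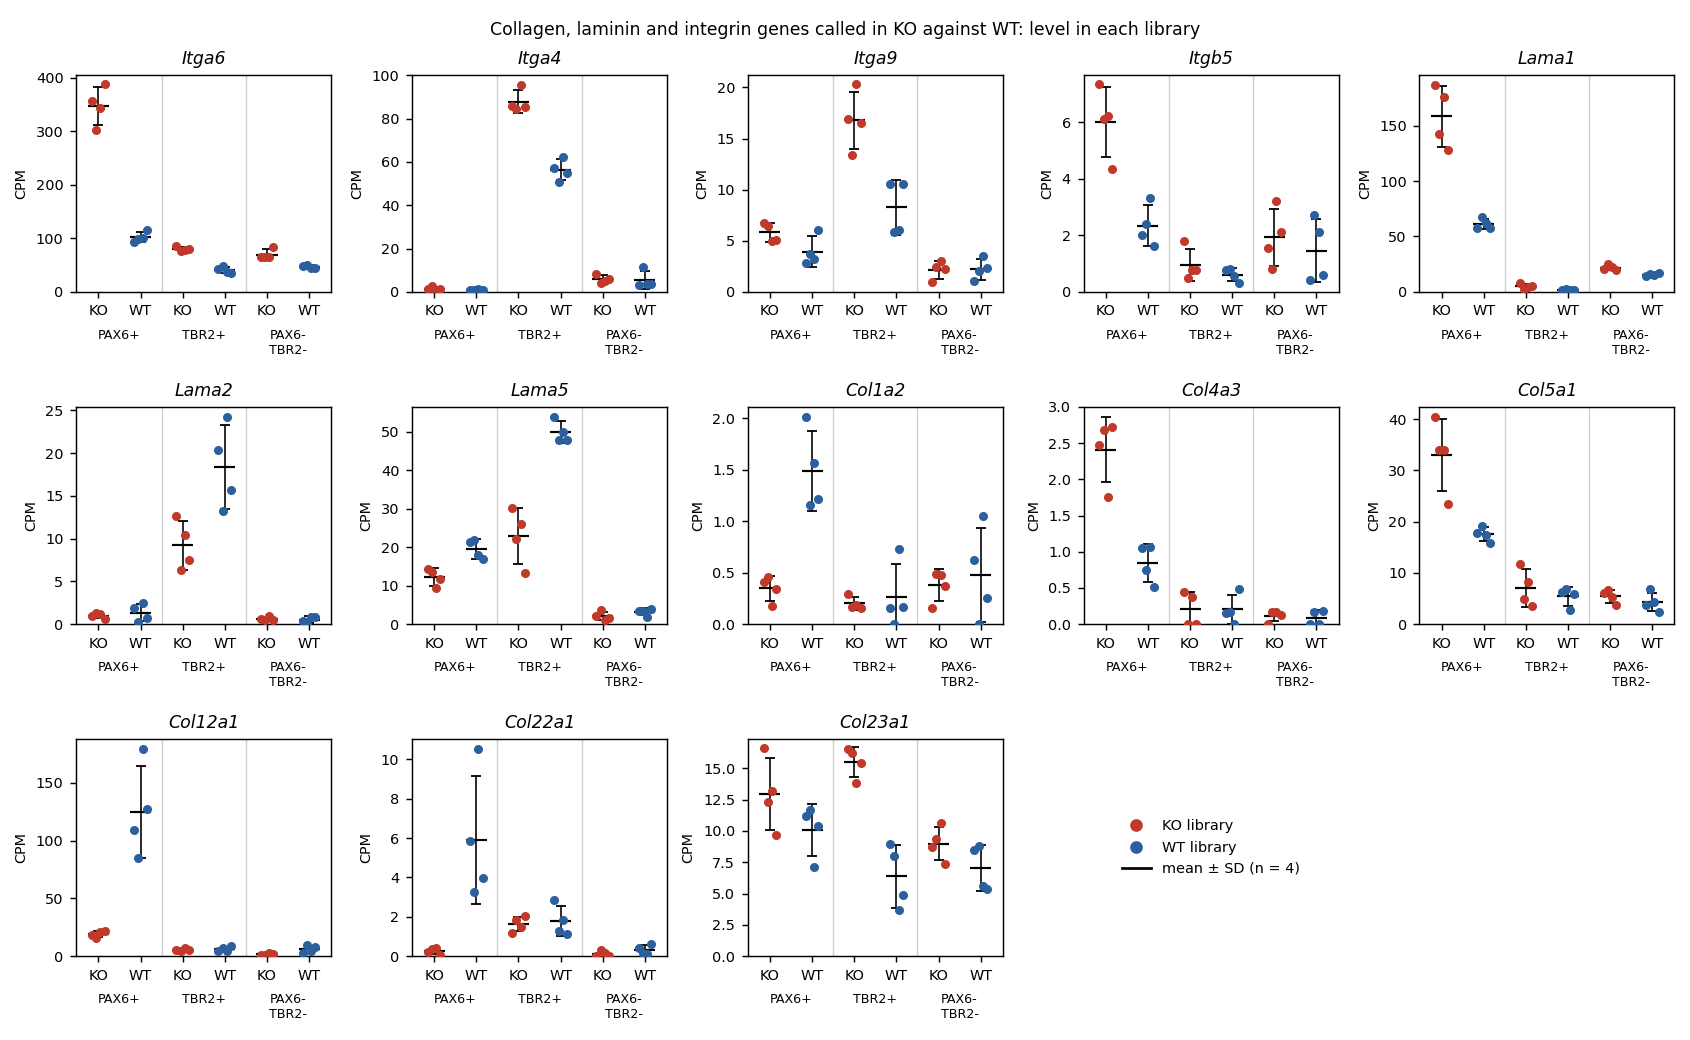
Level in CPM (vertical axis, linear, one scale per gene) of the 13 members called in KO against WT in at least 1 population. Points are libraries, KO in red and WT in blue, and bars are mean ± SD (n = 4). Itga6 in PAX6+ cells sits at 302 to 388 CPM in KO and 92.9 to 115 CPM in WT, and Col12a1 at 15.6 to 22 CPM in KO and 84.6 to 179 CPM in WT.

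Promoter sequence, 250 bases before to 50 bases after the start of the gene, was found for 56 of the 76 members and 8 of the 13 called in any population (RefSeq, GRCm38.p6). Promoters are shown for the 3 genes called in PAX6+ cells whose start in that table equals the GENCODE start, because they put a pair of genes that rose beside 1 that fell. They are written 5′ to 3′ on the strand of the gene, with capitals marking matches to the GC box GGGCGG on either strand. The windows are chr2:27886175-27886474 (plus strand) for Col5a1, chr16:33829415-33829714 (plus strand) for Itgb5 and chr2:180225810-180226109 (minus strand) for Lama5.
Col5a1: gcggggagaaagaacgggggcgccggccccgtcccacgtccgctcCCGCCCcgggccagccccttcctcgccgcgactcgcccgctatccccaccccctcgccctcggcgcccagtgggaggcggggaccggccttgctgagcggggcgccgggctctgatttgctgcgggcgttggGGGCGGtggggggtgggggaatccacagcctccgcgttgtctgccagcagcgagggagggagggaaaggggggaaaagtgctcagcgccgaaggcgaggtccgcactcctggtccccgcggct
Itgb5: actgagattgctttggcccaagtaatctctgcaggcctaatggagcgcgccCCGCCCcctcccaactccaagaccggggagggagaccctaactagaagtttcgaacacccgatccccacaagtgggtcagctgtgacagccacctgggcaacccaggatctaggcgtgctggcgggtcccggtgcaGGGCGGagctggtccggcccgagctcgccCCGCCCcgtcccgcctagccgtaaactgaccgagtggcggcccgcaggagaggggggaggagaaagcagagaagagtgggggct
Lama5: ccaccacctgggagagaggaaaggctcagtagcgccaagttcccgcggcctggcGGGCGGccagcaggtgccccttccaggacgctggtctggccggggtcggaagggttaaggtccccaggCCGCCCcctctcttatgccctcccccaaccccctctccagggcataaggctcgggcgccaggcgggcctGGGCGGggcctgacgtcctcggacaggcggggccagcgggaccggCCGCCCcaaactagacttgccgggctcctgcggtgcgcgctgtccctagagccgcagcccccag
The GC box occurred 2 times in the Col5a1 window, 3 times in that of Itgb5 and 4 times in that of Lama5, so it was found beside genes that moved in either direction. It occurs in 35.7% of all 32841 promoter windows of the same length. The GC content was 75% for Col5a1, 65.7% for Itgb5 and 72.7% for Lama5, against a median of 52.7% over all windows. No match to CCAAT (37.4% of all windows), TATAAA (13.6%) or AGATAA (11.2%), searched on both strands, was in these letters.

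In TBR2+ cells, 7 members were called. The integrin alpha subunits Itga6, Itga4 and Itga9 rose in KO intermediate progenitors, the laminin chains Lama5 and Lama2 fell while Lama1 rose, and the transmembrane collagen Col23a1 rose. The 7 called genes are 20% of the 35 members tested, against 1.76% of all 12687 genes tested; 5 were higher, where 1.1% of all genes were, and 2 were lower, where 0.662% were. The median log2 fold change over the 35 members was 0.18, against 0.0024 over all tested genes. The number called higher was 3 without WT replicate 2 or 3 or KO replicate 3 or 4, and the number called lower was 1 without WT replicate 1, 3 or 4 or KO replicate 2, 3 or 4. With all 24 libraries in 1 fit, 3 members were higher and 1 was lower.

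Itga6 was at 85.2, 76.8, 77.2 and 79.8 CPM in KO and 41.7, 48.1, 37 and 35.8 CPM in WT TBR2+ libraries. All KO libraries were above all WT libraries (log2 fold change 0.97, SE 0.11, adjusted p = 0.0003736). Itga4, the alpha4 subunit that binds fibronectin and VCAM-1, was at 85.9, 84.4, 95.6 and 85.5 CPM in KO and 57.3, 50.7, 62.3 and 55 CPM in WT libraries. The groups were again apart (log2 fold change 0.64, SE 0.10, adjusted p = 0.003748), but the call was lost with all 24 libraries in 1 fit (adjusted p = 0.2036). Exons of Cerkl overlap 8.04% of the Itga4 exon length on the other strand, and Cerkl held 193 reads over all libraries, against 3993 for Itga4. Itga9, whose subunit is the closest relative of alpha4, was at 16.9, 13.4, 20.3 and 16.5 CPM in KO and 10.6, 5.87, 6.05 and 10.6 CPM in WT libraries (log2 fold change 1.00, SE 0.22, adjusted p = 0.03153). That call was lost in 4 of 8 fits, those without WT replicate 2 or 3 or KO replicate 3 or 4, with an adjusted p of up to 0.1148 without KO replicate 3, and with all 24 libraries in 1 fit (adjusted p = 0.05324).

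Lama5 had its highest level in TBR2+ cells. It was at 30.2, 22, 25.9 and 13.2 CPM in KO and 53.8, 47.8, 49.9 and 47.9 CPM in WT libraries, without overlap (log2 fold change -1.13, SE 0.19, adjusted p = 0.005433), and the call held without each library in turn. Lama2, which encodes the alpha2 chain, was at 12.6, 6.29, 10.4 and 7.54 CPM in KO and 20.3, 13.2, 24.2 and 15.7 CPM in WT libraries (log2 fold change -0.99, SE 0.24, adjusted p = 0.04971). This was the call nearest to the threshold, and it was lost in 6 of 8 fits, all but those without WT replicate 2 or KO replicate 1, with an adjusted p of up to 0.172 without WT replicate 3. It was also lost with all 24 libraries in 1 fit (adjusted p = 0.1891) and with recovered reads, the whole reads behind the deposited normalized table (adjusted p = 0.07311). Lama1 was low, at 7.88, 2.81, 4.16 and 5.18 CPM in KO and 1.82, 2.28, 1.28 and 1.47 CPM in WT libraries (log2 fold change 1.53, SE 0.36, adjusted p = 0.04492). With 1 library left out, its call held only without KO replicate 2, and the adjusted p was up to 0.1433 without WT replicate 3. With recovered reads it was lost too (adjusted p = 0.08662). Lamb1 averaged 51.3 ± 5.3 CPM in KO and 39.2 ± 2.59 CPM in WT (log2 fold change 0.38, adjusted p = 0.1036) and Lamc1 49.5 ± 5.44 CPM in KO and 48.3 ± 3.1 CPM in WT (log2 fold change 0.03, adjusted p = 0.954).

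Col23a1 was the 1 collagen of 18 tested in TBR2+ cells that was called. It was at 16.5, 16.2, 13.8 and 15.4 CPM in KO and 8.95, 7.99, 3.67 and 4.91 CPM in WT libraries, so that the lowest KO library was above the highest WT library (log2 fold change 1.26, SE 0.24, adjusted p = 0.01191). Col12a1 was at 5.63 ± 1.14 CPM in KO and 6.49 ± 1.9 CPM in WT TBR2+ cells (log2 fold change -0.22, SE 0.26, adjusted p = 0.8206). Col22a1 was not tested here and averaged 1.64 ± 0.371 CPM in KO and 1.79 ± 0.784 CPM in WT. Over the 28 members tested and not called, log2 fold changes lay between -1.0 for Col14a1 and 1.22 for Col4a6.

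Promoters of Itga4 and Col23a1 are shown as those of a pair of genes that rose in TBR2+ cells, from the same source and with the same marking. The windows are chr2:79255176-79255475 (plus strand) and chr11:51289670-51289969 (plus strand).
Itga4: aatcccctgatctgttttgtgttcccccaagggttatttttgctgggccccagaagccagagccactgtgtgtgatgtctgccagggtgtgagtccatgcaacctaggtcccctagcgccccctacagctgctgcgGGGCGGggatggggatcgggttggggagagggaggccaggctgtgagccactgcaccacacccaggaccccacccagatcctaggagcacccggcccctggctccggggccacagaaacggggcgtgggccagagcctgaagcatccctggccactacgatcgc
Col23a1: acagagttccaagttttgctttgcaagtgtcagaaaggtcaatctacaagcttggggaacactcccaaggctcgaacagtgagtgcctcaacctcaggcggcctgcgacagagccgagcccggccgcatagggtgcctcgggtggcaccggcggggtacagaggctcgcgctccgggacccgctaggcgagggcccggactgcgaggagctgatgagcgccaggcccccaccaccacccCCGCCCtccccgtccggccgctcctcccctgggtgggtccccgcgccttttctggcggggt
Each window held the GC box 1 time and none of the other motifs, at a GC content of 64.3% for Itga4 and 67.7% for Col23a1.

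In PAX6-TBR2- cells, none of the 39 members tested was called by edgeR, where 0.00774% of all 12928 genes tested, a single gene, was called. At an unadjusted p under 0.05 there were 4 members, where 854 of all 12928 genes were. DESeq2 called 2 members, Itga6 as higher and Col12a1 as lower, and 25 genes over all genes. Itga6 was at 64.6, 64.8, 65 and 84.3 CPM in KO and 47.4, 49.9, 44.1 and 43.9 CPM in WT libraries. All KO libraries were above all WT libraries, with a log2 fold change of 0.59 (SE 0.11) and an adjusted p of 0.1628, which was 0.00585 by DESeq2, 0.01441 with no filter on low counts, 0.002064 with the replicate block and 0.03356 with all 24 libraries in 1 fit. Lama1 was at 20.4, 24.7, 22.5 and 19.8 CPM in KO and 14.1, 15.7, 15.2 and 16.7 CPM in WT libraries, also without overlap (log2 fold change 0.49, SE 0.13, adjusted p = 0.5287). The share of all genes without overlap was not counted, so the lack of overlap for Itga6 and Lama1 here is a description. Col12a1 was at 1.08, 1.47, 2.89 and 2.38 CPM in KO and 2.48, 9.47, 4.59 and 7.76 CPM in WT libraries, with KO replicate 3 above the lowest WT library (log2 fold change -1.66, SE 0.40, adjusted p = 0.3602, and 0.04522 by DESeq2). Over the 39 members, log2 fold changes lay between -1.66 for Col12a1 and 0.63 for Itga1, with a median of 0.03 against 0.00071 over all genes.

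**Figure D2:**
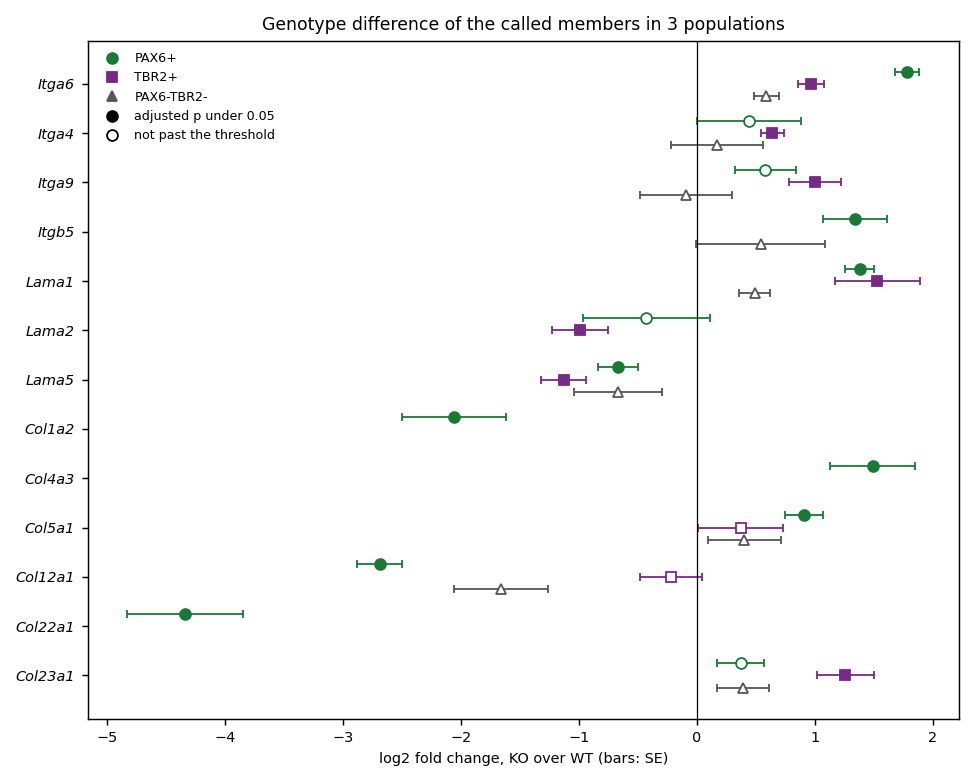
Log2 fold change of KO over WT (horizontal axis, bars are SE) for the 13 members called in at least 1 population. Circles are PAX6+, squares TBR2+ and triangles PAX6-TBR2- cells, filled where the adjusted p is under 0.05, and a population in which a gene was not tested has no point. Itga6 runs from 0.59 in PAX6-TBR2- cells to 1.78 in PAX6+ cells, and Col12a1 and Col22a1 lie farthest to the left in PAX6+ cells.

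Whether the genotype difference itself differed between populations was tested as an interaction. The difference in Itga6 was smaller in TBR2+ than in PAX6+ cells by 0.81 on the log2 scale (interaction -0.81, SE 0.15, adjusted p = 0.008572). It was also smaller in PAX6-TBR2- than in PAX6+ cells (interaction -1.18, SE 0.15, adjusted p = 0.0001349). For Col12a1 the fall in PAX6+ cells was larger than that in TBR2+ cells (interaction 2.47, SE 0.33, adjusted p = 0.0003046), and likewise for Col22a1 (interaction 4.18, SE 0.67, adjusted p = 0.001584). Between PAX6-TBR2- and PAX6+ cells the Col12a1 difference did not pass the test (interaction 0.99, SE 0.47, adjusted p = 0.6946). The Lama1 difference was smaller in PAX6-TBR2- than in PAX6+ cells (interaction -0.89, SE 0.18, adjusted p = 0.01389), a call lost without WT PAX6-TBR2- replicate 4 (adjusted p = 0.05433).

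These interaction calls were 3 of 48 members tested between TBR2+ and PAX6+ cells, or 6.25%, where 0.612% of all genes were called. Between PAX6-TBR2- and PAX6+ cells they were 2 of 52 members, or 3.85%, where 0.775% of all genes were. Between PAX6-TBR2- and TBR2+ cells none of 47 members was called by edgeR, where 0.051% of all genes were called (0.0219% higher and 0.0291% lower). At an unadjusted p under 0.05 there were 6 members, and 678 of all 13725 genes. DESeq2 called 0 members as well. For Lama5, Itga4, Itga9, Lama2, Col23a1, Col5a1, Itgb5, Col4a3 and Col1a2, no difference between populations was called, so a call in 1 population and not in another does not show that they differ.

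Summed over the 13 integrin alpha genes, PAX6+ libraries held 489 ± 35.9 CPM in KO and 236 ± 11.1 CPM in WT, with Itga6 at 348 and 102 CPM of these sums. In TBR2+ cells the sum was 219 ± 13 CPM in KO and 134 ± 5.53 CPM in WT, and in PAX6-TBR2- cells 116 ± 7.07 CPM in KO and 93.7 ± 6.68 CPM in WT. The 8 integrin beta genes summed to 222 ± 29.8 CPM in KO and 213 ± 20.7 CPM in WT PAX6+ cells and to 117 ± 3.55 CPM in KO and 120 ± 4.86 CPM in WT TBR2+ cells. The 44 collagens summed to 418 ± 41.3 CPM in KO and 562 ± 64.8 CPM in WT PAX6+ cells, and the 11 laminins to 314 ± 41.9 CPM in KO and 248 ± 22 CPM in WT. These sums are descriptions dominated by their most abundant members and were not tested.

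**Figure D3:**
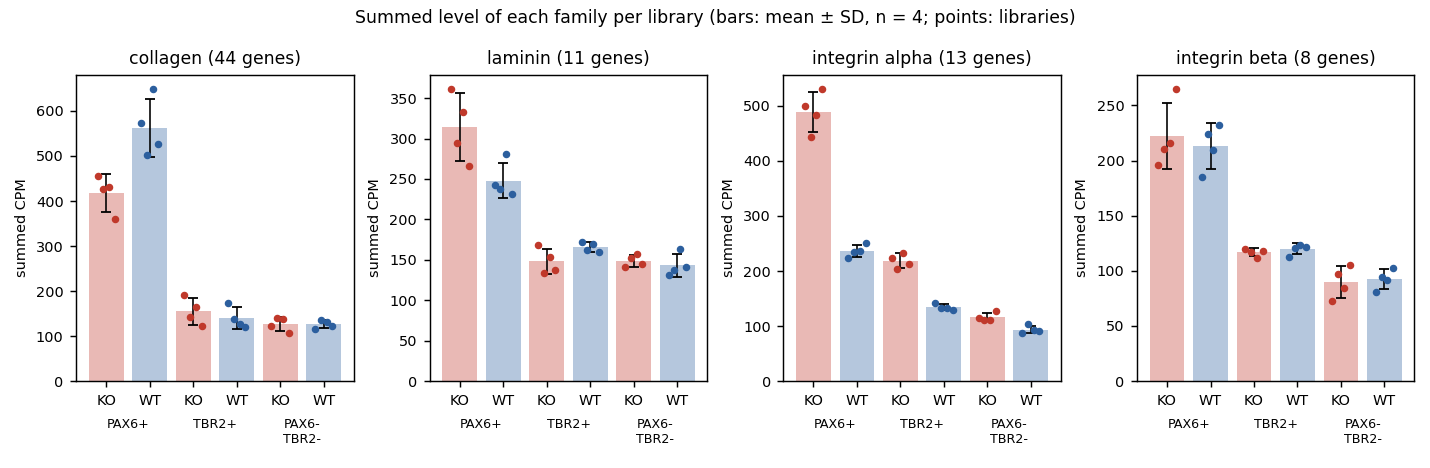
Summed CPM of each family (vertical axis, from 0) in KO (red) and WT (blue) libraries of each population, with bars for mean ± SD (n = 4) and points for libraries. The integrin alpha sum of PAX6+ cells is 489 ± 35.9 CPM in KO and 236 ± 11.1 CPM in WT, while the integrin beta sum is 222 ± 29.8 CPM in KO and 213 ± 20.7 CPM in WT.

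Among WT libraries the 3 populations differed in many of these genes, as they did in many genes over all. Population goes together with the library prefix in the labels, so differences in handling cannot be told apart from differences between cell types. In WT TBR2+ against WT PAX6+ cells, 35 of 46 members were called, 9 higher and 26 lower, or 76.1% against 63.2% of all 13550 genes tested; 31% of all genes were called higher and 32.2% lower. The median log2 fold change of the members was -1.03, against -0.018 over all genes. In WT PAX6-TBR2- against WT PAX6+ cells, 34 of 48 were called, 8 higher and 26 lower. That is 70.8% against 66.6% of all 14308 genes, of which 32.9% were called higher and 33.7% lower. The median was -0.78 against -0.015. In WT PAX6-TBR2- against WT TBR2+ cells, 18 of 36 were called, 8 higher and 10 lower. That is 50% against 49% of all 12868 genes, a share near that of genes in general. Of all genes, 25.6% were called higher and 23.4% lower.

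Laminin alpha chains changed from population to population. Lama1 was at 15.4 ± 1.08 CPM in WT PAX6-TBR2-, 1.71 ± 0.439 CPM in WT TBR2+ and 61.3 ± 4.83 CPM in WT PAX6+ cells, the steepest fall of any member tested in TBR2+ against PAX6+ cells (log2 fold change -5.12, SE 0.17, adjusted p = 1.381e-13). Lama2 was at 0.516 ± 0.396, 18.4 ± 4.88 and 1.34 ± 1.02 CPM in the same order of populations, so that WT TBR2+ cells exceeded WT PAX6+ cells by 3.74 on the log2 scale (SE 0.38, adjusted p = 1.513e-07) and WT PAX6-TBR2- cells lay below WT TBR2+ cells (log2 fold change -4.77, SE 0.37, adjusted p = 5.227e-08). Lama5 was at 3.18 ± 0.933 CPM in WT PAX6-TBR2-, 49.9 ± 2.82 CPM in WT TBR2+ and 19.5 ± 2.49 CPM in WT PAX6+ cells, and its log2 fold change in PAX6-TBR2- against TBR2+ cells was -3.89 (SE 0.18, adjusted p = 8.193e-10).

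The beta chains divided between populations. Lamb1 was at 46.8 ± 6.99 CPM in WT PAX6-TBR2-, 39.2 ± 2.59 CPM in WT TBR2+ and 5.11 ± 0.902 CPM in WT PAX6+ cells, and Lamb2 at 3.84 ± 0.85, 5.59 ± 2.36 and 53.1 ± 8.12 CPM. In TBR2+ against PAX6+ cells Lamb1 was higher (log2 fold change 2.94, SE 0.15, adjusted p = 1.836e-11) and Lamb2 lower (log2 fold change -3.21, SE 0.21, adjusted p = 4.494e-10). Lamc1, the common gamma1 chain, was at 66.6 ± 8.89 CPM in WT PAX6-TBR2-, 48.3 ± 3.1 CPM in WT TBR2+ and 103 ± 14.4 CPM in WT PAX6+ cells. Per kb it was the highest laminin gene in each population, at 8.05, 5.84 and 12.5 CPM per kb in that order. Lama4 was higher in WT PAX6-TBR2- than in WT TBR2+ cells, at 4.21 ± 1.42 and 1.29 ± 1.44 CPM (log2 fold change 1.71, SE 0.55, adjusted p = 0.01774), a call lost without WT TBR2+ replicate 2 or 4 (adjusted p up to 0.05272). Without WT TBR2+ replicate 3 the log2 fold change of Lama4 was 2.67.

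Integrin alpha genes showed a comparable exchange. Itga4 was at 5.45 ± 4.04 CPM in WT PAX6-TBR2-, 56.3 ± 4.84 CPM in WT TBR2+ and 1.06 ± 0.13 CPM in WT PAX6+ cells, the largest rise of any member tested in TBR2+ against PAX6+ cells (log2 fold change 5.71, SE 0.16, adjusted p = 2.607e-14), and it was again lower in PAX6-TBR2- than in TBR2+ cells (log2 fold change -3.46, SE 0.29, adjusted p = 1.419e-07). Itga3, another laminin receptor subunit, was at 10.7 ± 3.68 CPM in WT PAX6-TBR2-, 7.55 ± 2.19 CPM in WT TBR2+ and 1.58 ± 0.555 CPM in WT PAX6+ cells (log2 fold change 2.79 in PAX6-TBR2- against PAX6+, SE 0.31, adjusted p = 9.052e-07). Itga6 ran the other way, at 46.3 ± 2.85, 40.7 ± 5.57 and 102 ± 9.44 CPM in the same order (log2 fold change -1.13 in PAX6-TBR2- against PAX6+, SE 0.11, adjusted p = 1.345e-07). Itga5, a fibronectin receptor subunit at 25.6 ± 2.54 CPM in KO and 28.2 ± 3.33 CPM in WT PAX6+ cells, and the collagen receptor subunit Itga2 were lower in TBR2+ than in PAX6+ cells, by log2 fold changes of -3.73 (SE 0.20, adjusted p = 4.754e-11) and -3.42 (SE 0.47, adjusted p = 5.896e-06). Itga8, which pairs with beta1 to bind RGD-containing ligands, was higher in PAX6-TBR2- than in TBR2+ cells (log2 fold change 1.53, SE 0.47, adjusted p = 0.01307).

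Among beta subunits, Itgb1 stayed highest per kb in every population, at 16.4 CPM in WT PAX6-TBR2-, 23.2 CPM in WT TBR2+ and 22.4 CPM in WT PAX6+ cells. Its log2 fold change in TBR2+ against PAX6+ cells was 0.07 (SE 0.10, adjusted p = 0.6006), and in PAX6-TBR2- against PAX6+ cells -0.43 (SE 0.11, adjusted p = 0.003514). Itgb8, whose subunit pairs with alphav, was at 1.25, 1.45 and 9.92 CPM per kb in that order, and lower in TBR2+ than in PAX6+ cells (log2 fold change -2.76, SE 0.15, adjusted p = 6.059e-11). Itgb7, whose subunit is known as a partner of alpha4, was at 2.54, 2.12 and 2.42 CPM per kb and was not called in any of these 3 comparisons.

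Of the collagens tested, 15 of 22 were lower in TBR2+ and 15 of 24 lower in PAX6-TBR2- than in PAX6+ cells, with 3 and 5 higher. Over all genes, 32.2% were called lower and 31% higher in TBR2+ against PAX6+ cells. In PAX6-TBR2- against PAX6+ cells 33.7% were called lower and 32.9% higher. In WT PAX6-TBR2-, WT TBR2+ and WT PAX6+ cells, Col2a1 was at 10.7 ± 2.92, 11.1 ± 4.83 and 198 ± 28.4 CPM, and its log2 fold change was -4.13 (SE 0.21, adjusted p = 1.787e-11) in TBR2+ against PAX6+ cells and -4.12 (SE 0.18, adjusted p = 2.351e-11) in PAX6-TBR2- against PAX6+ cells. Col12a1 was at 6.08 ± 3.13, 6.49 ± 1.9 and 125 ± 40 CPM in the same order, with log2 fold changes of -4.24 (SE 0.23, adjusted p = 5.237e-11) and -4.25 (SE 0.28, adjusted p = 2.604e-09) against PAX6+ cells. In PAX6-TBR2- against PAX6+ cells the chains Col4a5 (log2 fold change -4.38), Col4a6 (-4.20) and Col22a1 (-3.77) were among the 5 largest falls. Without WT PAX6-TBR2- replicate 4 the value for Col22a1 was -4.68, on 21 reads in the 4 WT PAX6-TBR2- libraries. Col4a5 also lay lower in PAX6-TBR2- than in TBR2+ cells (log2 fold change -2.18, adjusted p = 0.0002087).

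The collagens highest per kb were others outside PAX6+ cells. Col11a1, a chain of the fibrillar type XI collagen, led in TBR2+ cells at 3.64 CPM per kb in KO and 3.7 CPM per kb in WT, which is 46.4 ± 4.84 CPM in KO and 47.1 ± 5.31 CPM in WT (log2 fold change -0.03, adjusted p = 0.9612). It was at 20.3 ± 4.48 CPM in WT PAX6-TBR2- and 38 ± 2.12 CPM in WT PAX6+ cells, and it was higher in WT TBR2+ than in WT PAX6+ cells (log2 fold change 0.33, SE 0.11, adjusted p = 0.0159). Col9a3, a chain of the FACIT collagen IX, came next in WT TBR2+ cells, at 6.9 ± 1.79 CPM in KO and 8.47 ± 0.989 CPM in WT. Per kb it was at 1.79 CPM in KO and 2.2 CPM in WT. Col23a1 was at 2.7 CPM per kb in KO TBR2+ cells, above Col9a3, and at 1.11 CPM per kb in WT. Col9a3 led in PAX6-TBR2- cells, at 3.35 CPM per kb in KO and 4.22 CPM per kb in WT. That is 12.9 ± 3.11 CPM in KO and 16.2 ± 2.94 CPM in WT (log2 fold change -0.36, adjusted p = 0.8019). Exons of Tcfl5 overlap 6.07% of the Col9a3 exon length on the other strand, with 96 reads over all libraries against 2927 for Col9a3.

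Some collagens were higher in TBR2+ or PAX6-TBR2- cells. Col14a1, a FACIT collagen, was at 0.783 ± 0.147 CPM in WT PAX6-TBR2-, 4.28 ± 1.46 CPM in WT TBR2+ and 1.37 ± 0.0542 CPM in WT PAX6+ cells, and both its rise in TBR2+ against PAX6+ cells (log2 fold change 1.64, adjusted p = 0.000205) and its fall in PAX6-TBR2- against TBR2+ cells (-2.33, adjusted p = 5.339e-05) were called. Col4a1 and Col4a2, the main chains of basement membrane collagen IV, were at 14.2 ± 5.28 and 13.9 ± 5.84 CPM in WT PAX6-TBR2- cells, against 4.74 ± 3.18 and 5.17 ± 4.07 CPM in WT TBR2+ cells (log2 fold changes 1.60 and 1.45, adjusted p = 0.002214 and 0.008774). Without WT TBR2+ replicate 3 the log2 fold change of Col4a2 was 2.06. Col15a1 (log2 fold change 2.76, adjusted p = 0.0002253) and Col20a1 (2.35, adjusted p = 0.0001128) were higher in PAX6-TBR2- than in PAX6+ cells at low levels, 2.06 ± 0.771 and 2.36 ± 0.587 CPM against 0.291 ± 0.212 and 0.465 ± 0.248 CPM. Exons of Col20a1 overlap those of BX649560.1 on the same strand over 79 bases, and that gene held 637 reads in all libraries, against 268 for Col20a1.

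Vessel walls are rich in collagen IV and laminins, so vascular markers are given beside these values. The summed level of 12 endothelial markers was 13.3 to 26.9 CPM in WT PAX6-TBR2-, 5.55 to 16.7 CPM in WT TBR2+ and 8.88 to 17.4 CPM in WT PAX6+ cells, and that of 9 mural markers 23.3 to 45.8, 11 to 26.4 and 81.7 to 143 CPM. Notch3 alone averaged 5.88 ± 3.34, 5.4 ± 1.97 and 91.7 ± 22.2 CPM in these groups, and the other 8 mural markers summed to 15.2 to 36.7, 6.69 to 21.8 and 11.5 to 29.7 CPM, a split made after the values were seen. The sums of the other 8 overlapped between all 3 populations. Their part in the levels of Col4a1, Col4a2, Col15a1 and Lama4 was not tested.

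**Figure D4:**
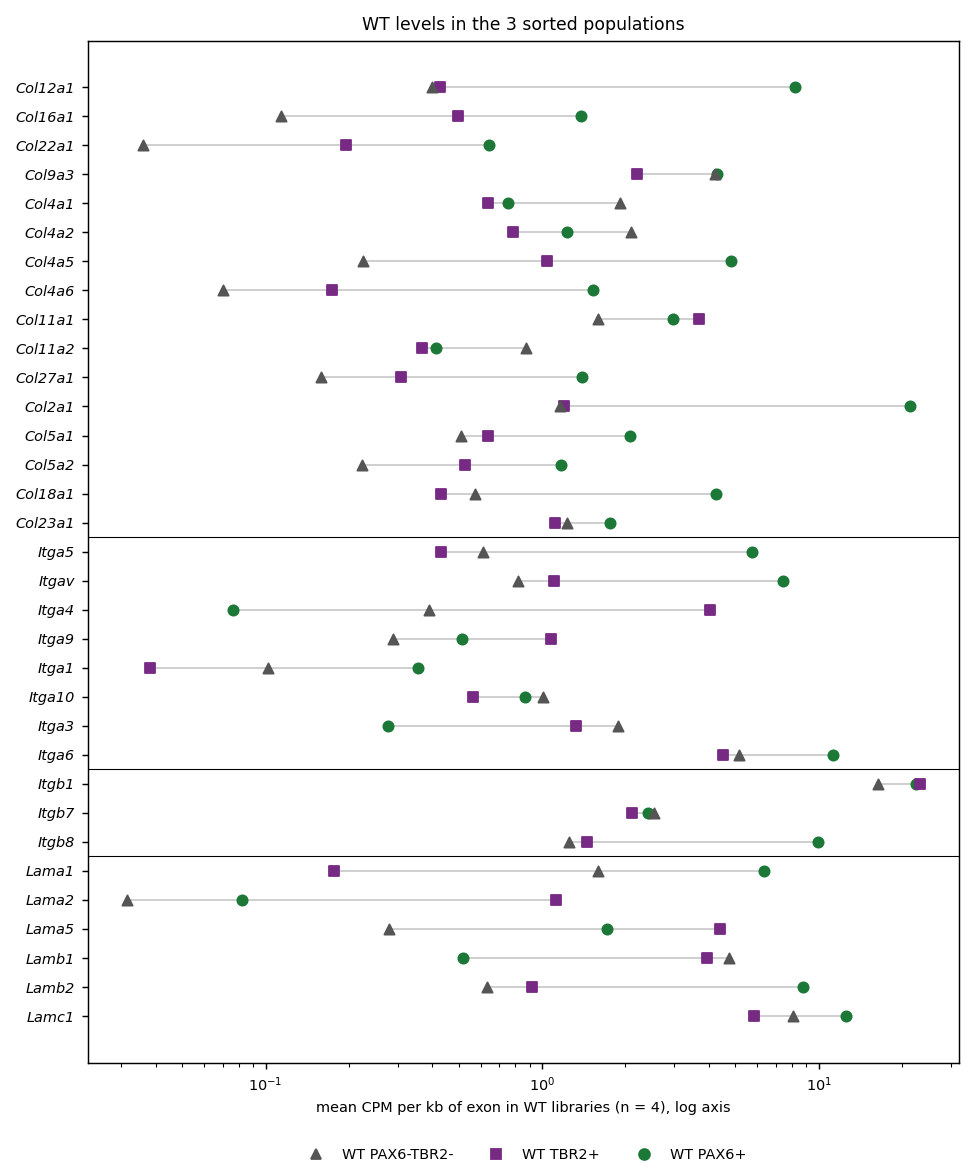
Mean level in WT libraries, in CPM per kb of exon on a log axis, of the 33 members with a WT mean of at least 5 CPM in some population, ordered by family. Triangles are PAX6-TBR2-, squares TBR2+ and circles PAX6+ cells, and a grey line joins the lowest to the highest population of a gene. Col2a1, Col12a1, Lamb2 and Itgb8 are farthest to the right in PAX6+ cells, Itga4, Lama2 and Lama5 in TBR2+ cells and Lamb1 and Itga3 in PAX6-TBR2- cells.

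Other genes of the same system were read in 4 lists, outside the 76 members. Their counts are to be read against all genes tested, of which 3.64% were called in PAX6+ cells (2.45% higher and 1.19% lower) and 1.76% in TBR2+ cells. Of 22 basement membrane and matrix glycoproteins, 19 were tested in PAX6+ cells and 3 were called. Vcan, a large chondroitin sulfate proteoglycan, rose to 759 ± 47.8 CPM in KO, against 397 ± 53.6 CPM in WT (log2 fold change 0.94, SE 0.11, adjusted p = 4.743e-05). Smoc1, a secreted calcium-binding matrix protein, fell to 3.64 ± 1.7 CPM in KO, against 25.7 ± 8.85 CPM in WT (log2 fold change -2.80, SE 0.29, adjusted p = 1.662e-05), and in TBR2+ cells to 1.04 ± 0.596 CPM in KO, against 12 ± 4.02 CPM in WT (log2 fold change -3.49, SE 0.38, adjusted p = 0.0001426). Fbln2, which binds laminins and other basement membrane proteins, was at 6.74 ± 1.11 CPM in KO and 19.6 ± 8.53 CPM in WT PAX6+ cells (log2 fold change -1.54, SE 0.27, adjusted p = 0.002412). Smoc1 was the 1 gene called of the 16 tested from this list in TBR2+ cells, where DESeq2 also called Vcan as higher.

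Of 21 genes that modify or cross-link collagens, 19 were tested in PAX6+ cells and 2 called. Adamts3, a procollagen N-proteinase, was at 59 ± 5.8 CPM in KO and 33.8 ± 2.4 CPM in WT (log2 fold change 0.81, SE 0.11, adjusted p = 0.0003354). Loxl1, of the lysyl oxidase family, was at 9.38 ± 3.87 CPM in KO and 19.8 ± 5.07 CPM in WT PAX6+ cells (log2 fold change -1.08, adjusted p = 0.01502) and at 7.79 ± 1.48 CPM in KO and 16.4 ± 4.64 CPM in WT TBR2+ cells (log2 fold change -1.08, adjusted p = 0.02103), the 1 gene called of 14 tested there. Of 21 other matrix receptors, 19 were tested in PAX6+ cells and 3 fell: the collagen receptor Ddr2 (log2 fold change -0.97, adjusted p = 0.02693), the syndecan Sdc3 (-0.88, adjusted p = 0.03112) and the hyaluronan receptor Cd44 (-1.46, adjusted p = 0.04345). Of 25 integrin adaptors and signalling genes, 20 were tested in PAX6+ cells and 1 was called by edgeR, Tns3 (log2 fold change -0.42, SE 0.11, adjusted p = 0.04275), which links integrins to actin. DESeq2 called Tns3 as lower and also Parvb as higher. The medians of the 4 lists in PAX6+ cells were -0.10, -0.15, -0.13 and -0.03 in the order given, against 0.002 over all tested genes. In TBR2+ cells none of 16 other receptors and 18 adaptors was called by edgeR or DESeq2, with 3 adaptors at an unadjusted p under 0.05 by edgeR. In PAX6-TBR2- cells no gene of the 4 lists was called by either, with 4 matrix glycoproteins and 1 adaptor at an unadjusted p under 0.05 by edgeR. Over all genes, 1566 of 12687 in TBR2+ and 854 of 12928 in PAX6-TBR2- cells had such a p by edgeR.

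Markers of other cell types were compared between the genotypes beside these results. Over all genes, 1730 of 14212 in PAX6+ and 1566 of 12687 in TBR2+ cells had an unadjusted p under 0.05 by edgeR. In PAX6+ cells, 5 of 12 endothelial markers were tested, all 5 with negative log2 fold changes, 1 at an unadjusted p under 0.05 and none called by edgeR or DESeq2, and their sum was 3.48 to 14.9 CPM in KO and 8.88 to 17.4 CPM in WT. The sum of 9 mural markers was 50.8 to 125 CPM in KO and 81.7 to 143 CPM in WT, of which Notch3 made 76.6 ± 22.7 CPM in KO and 91.7 ± 22.2 CPM in WT and the other 8 summed to 7.82 to 32.9 CPM in KO and 11.5 to 29.7 CPM in WT. The sum of 10 meningeal fibroblast markers was 7.74 to 10.4 CPM in KO and 9.6 to 10.8 CPM in WT, with Lum and Slc6a13 at 0 in all 8 libraries. The sum of 6 Cajal-Retzius markers was 19.2 to 96.8 CPM in KO and 32.5 to 292 CPM in WT, mostly Reln (36.7 ± 33.2 CPM in KO and 93.1 ± 115 CPM in WT), and that of 8 interneuron markers 7.05 to 9.56 CPM in KO and 8.13 to 29.9 CPM in WT, with Gad2 called lower. Of the sorted lineage itself, 8 radial glia, 6 intermediate progenitor and 8 neuron markers were tested in PAX6+ cells. Log2 fold changes were negative for 2, 4 and 6 of these, with medians of 0.27, -0.22 and -0.32. By edgeR, Slc1a3 was higher (log2 fold change 0.43, adjusted p = 0.03541) in KO PAX6+ cells. Eomes (-0.74, adjusted p = 0.0358), Insm1 (-0.52, adjusted p = 0.01738) and Dcx (-1.01, adjusted p = 0.008095) were lower. The other markers of these lists were not called. The part of these shifts in the member results was not tested. In TBR2+ cells the 6 Cajal-Retzius markers summed to 349 to 520 CPM in KO and 104 to 505 CPM in WT, with positive log2 fold changes for all 6, 2 at an unadjusted p under 0.05 and none called by edgeR or DESeq2, and mitochondrial genes took 30.5% to 39.3% of the counts in KO and 24.7% to 33.1% in WT. Reln averaged 351 ± 69.1 CPM in KO and 231 ± 155 CPM in WT of the Cajal-Retzius sum. Some markers of the sorted lineage were called in TBR2+ cells as well, by DESeq2 and not by edgeR. None of 7 radial glia, 6 intermediate progenitor and 8 neuron markers was called by edgeR, with 2, 4 and 2 at an unadjusted p under 0.05. DESeq2 called Sox2 and Slc1a3 as higher and Elavl4 and Tubb3 as lower. Sox2 was at 43.8 ± 7.89 CPM in KO and 27.1 ± 7.61 CPM in WT (edgeR log2 fold change 0.68, adjusted p = 0.09451), and Slc1a3 at 45.7 ± 8.7 CPM in KO and 28.1 ± 7.3 CPM in WT (0.69, adjusted p = 0.07861). Of the 6 intermediate progenitor markers, 5 had negative log2 fold changes, with a median of -0.20. Of the 5 members called higher in KO TBR2+ cells, Itga6, Lama1 and Col23a1 were called lower in WT TBR2+ than in WT PAX6+ cells. Itga4 and Itga9 were called higher in WT TBR2+ than in WT PAX6+ cells. The part of these shifts in the TBR2+ results was not tested.

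In PAX6-TBR2- cells the 8 interneuron markers summed to 461 to 1106 CPM in KO and 351 to 954 CPM in WT, with positive log2 fold changes for all 8 and a median of 0.38. The 5 mural markers tested had positive values as well, with a median of 0.21, and all 9 summed to 28.5 to 49.4 CPM in KO and 23.3 to 45.8 CPM in WT. Neither list had a gene called by edgeR or DESeq2, or at an unadjusted p under 0.05. Their part in the values of the members was not tested.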

How the data were processed

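RNA of the sorted cells was extracted with a RecoverAll kit, amplified by single primer isothermal amplification and made into libraries without molecular identifiers, per the labels' protocols. Build mm10 is named in the submitters' processing notes, with STAR and featureCounts among the tools and cutadapt, FastQC and DESeq2 beside them. No tool version is stated. Which annotation and strand options were used is not given in the sources used here, and reads of genes on opposite strands may therefore be mixed. The deposited tables hold raw counts per gene, with 2 lane columns per library, summed here. A deposited normalized table holds signal values, counts of a library divided by a factor, from which whole reads were recovered (tolerance 1e-06) for TBR2+ and PAX6-TBR2- cells and used as an alternative. They were 1.44 to 1.7 times the raw counts of their group.

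Genes were named with GENCODE M21 (GRCm38), which matched 37693 of 39017 identifiers. Tests used edgeR 4.0.16 in R 4.3.3 (filterByExpr, TMM factors, two-sided quasi-likelihood F test) on all genes, separately in each population. SE is the absolute log2 fold change divided by the square root of F. Checked on simulated data for KO against WT in PAX6+ cells, with 13965 genes fitted, the test recovered 71.4% of genes changed by 1 and 100% of those changed by 2 on the log2 scale. Interaction tests recovered fewer. For TBR2+ against PAX6+ cells the shares were 47.4% and 79.2%, and for PAX6-TBR2- against PAX6+ cells 51.6% and 81.6%. For PAX6-TBR2- against TBR2+ cells they were 37.8% and 87.9%. Intervals from counting would cover counting error only: pairs of libraries of a group differed by a chi-square per degree of freedom of 5.65 to 45.5, so no 2 were taken as the same library. With no record of embryos or litters, pairing of KO with WT libraries was judged from the data alone. Libraries of the same replicate number were correlated by their deviations from the group means, with 0.1 as the minimum for a pair. In PAX6+ cells the values were 0.18, 0.15, 0.16 and 0.33, each over 0.1, which does not show that the libraries were paired by design. In TBR2+ cells they were 0.31, 0.048, 0.04 and 0.29, and in PAX6-TBR2- cells 0.22, 0.062, 0.23 and 0.26. Some of these were under 0.1, so pairing was left undecided there. The main fits, and those that left out a library, held no pairing term in any population.

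The members and gene lists were chosen with earlier results of these data known. Named with values in every library are the members called in KO against WT in any population. Named by group means are the 3 highest members of each family per population and the 5 largest calls in each direction between WT populations. From the lists, called genes are named. Alternatives were DESeq2 size factors, no filter, DESeq2 1.42.0, the replicate block, all populations in 1 fit, recovered reads and leaving out each library.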

Additional observations from a re-analysis of the deposited data

Results flagged for a closer look

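In 3 of 78 sets of 4 libraries of a called member, 1 library stood far from the other 3 by Dixon's criterion, which chance meets in about 1 in 20 sets. Itga4 was at 95.6 CPM in KO TBR2+ replicate 3, with the other KO TBR2+ libraries at 84.4 to 85.9 CPM. It was at 11.5 CPM in WT PAX6-TBR2- replicate 2, with the other libraries of that group at 3.1 to 3.67 CPM. Itga6 was at 84.3 CPM in KO PAX6-TBR2- replicate 4, with the other libraries at 64.6 to 65 CPM, all above the WT libraries.

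The genotype difference itself differed between populations, by edgeR's interaction test, for 4 members. For Itga6 the interaction was -0.81 (log2) in TBR2+ against PAX6+ cells and -1.18 in PAX6-TBR2- against PAX6+ cells. Col12a1 and Col22a1 had interactions of 2.47 and 4.18 in TBR2+ against PAX6+ cells. For Lama1 it was -0.89 in PAX6-TBR2- against PAX6+ cells.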

How the results depend on the processing

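In PAX6+ cells, members called lower numbered 8 with no filter on low counts, against 4. In TBR2+ cells, members called higher numbered 3 and called lower 1 with all populations in 1 fit, against 5 and 2, and 1 was called lower with recovered reads. In PAX6-TBR2- cells, 1 member was called higher (Itga6) and 1 lower (Col12a1) with no filter, by DESeq2 and with the replicate block, and 1 higher with all populations in 1 fit, against 0 each. WT PAX6-TBR2- against WT TBR2+ gave 18 members higher with no filter, against 8. The interaction of PAX6-TBR2- against PAX6+ cells gave 1 member higher with no filter and 1 with the replicate block (Col4a2), against 0. With no filter more genes were tested. The cause of the other changes was not tested. Leaving out 1 library gave 4 to 5 members higher and 2 to 4 lower in PAX6+ cells, 3 to 5 higher and 1 to 2 lower in TBR2+ cells, and 1 to 2 lower in the interaction of PAX6-TBR2- against PAX6+ cells.

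Signs changed for 5 uncalled values with 1 library left out. In PAX6+ cells Lama2 lay between -0.77 and 0.07 and Itga4 between -0.12 and 0.68 over these fits. Col5a1 in TBR2+ cells lay between -0.01 and 0.60. In PAX6-TBR2- cells Itga9 lay between -0.29 and 0.17 (0.16 without KO replicate 1) and Itga4 between -0.05 and 0.76. No other named value changed sign under these alternatives.

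Over all genes, PAX6+ calls numbered 1045 with the replicate block, against 517. TBR2+ calls numbered 728 with no filter, 363 by DESeq2, 720 with the block and 121 to 420 with 1 library left out, against 223. PAX6-TBR2- calls numbered 38, 25 and 153 in the same order and 6 with all populations in 1 fit, against 1. Interaction calls of TBR2+ against PAX6+ numbered 329, 160 and 323, against 89, and of PAX6-TBR2- against TBR2+ cells 126, 28 and 210, against 7. For PAX6-TBR2- against PAX6+ they numbered 219 with no filter and 332 with the block, against 117. In PAX6+ cells each same-number correlation was over 0.1, and the block changed no member call of KO against WT beyond those given with the results. It added Lamb1 in the interaction of TBR2+ against PAX6+ cells (0.74, adjusted p = 0.04912). In the other populations some same-number correlations were under 0.1, although each KO library correlated best with its own number except TBR2+ replicate 3. Whether libraries are paired there is therefore left undecided. In these populations the block added Lamb1 in TBR2+ cells (adjusted p = 0.04791) and Itga6 and Col12a1 in PAX6-TBR2- cells.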
